A study of Homo sapiens with 12 samples.

Results

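Genes that proliferating cells need without any drug were compared between OE19 and N87, the lines of a pooled CRISPR knockout screen. The comparison was taken from 8 of the 12 libraries of the series, chosen by their labels as the vehicle and baseline libraries of both lines, and the 4 lapatinib libraries were left out. OE19 is an adenocarcinoma line of the oesophagogastric junction, which the labels call gastric cancer, and N87 is a gastric cancer line. Both carry HER2 amplification. OE19 and N87 cells received the human GeCKO v2 lentiviral sgRNA library (multiplicity of infection 0.3), were kept in puromycin for 7 days (1.5 µg/mL for OE19 and 0.75 µg/mL for N87) and then collected as baseline cells, or grown for another 14 days in vehicle (DMSO) and collected as vehicle cells. Each of the 4 groups (OE19 vehicle, OE19 baseline, N87 vehicle and N87 baseline) had 2 libraries, from 2 infections of the line. Of 20915 gene names in the count table, 20894 had enough counted sgRNAs to be tested, and most genes (18938) had 6 sgRNAs in the table.

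In such a screen each cell carries an sgRNA that directs Cas9, encoded on the same vector, to cut a single gene. Cells that lost a gene they need for growth are overgrown by the others, so its sgRNAs become rarer with time, and sgRNAs against a gene that restrains growth become more common. Cas9 cuts are themselves known to slow growth where the target lies in an amplified segment, whatever the gene does. Each line is a single genetic background with its own mutations, amplifications and growth rate. Genes whose loss had acted before the baseline was taken would show only part of it. The number of cell divisions between baseline and vehicle is not given in the sources used here, so a faster growing line and a stronger need for a gene cannot be told apart. Copy number was not analysed here.

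The value used throughout is the log2 change of an sgRNA, vehicle over baseline, summarised for a gene as the median over its sgRNAs with the SD over those sgRNAs. The difference is the OE19 change minus the N87 change, so a negative difference means that the sgRNAs were lost more, or gained less, in OE19. It was fitted for each sgRNA over the 8 libraries, and the changes were fitted within each line. Each was then summarised by its own median, so the changes given need not subtract to the difference given. The same holds for medians over gene lists. Normalized counts per library are medians over the sgRNAs of a gene after median-of-ratios scaling. Total counts ranged from 18428467 (OE19 vehicle replicate 2) to 33743599 (N87 baseline replicate 1), and between 22 and 160 of the 123411 sgRNA entries had no count in a library. Replicates differed beyond counting noise in each group, with chi-square statistics over degrees of freedom of 6.28 in OE19 vehicle, 1.87 in OE19 baseline, 4.99 in N87 vehicle and 2.62 in N87 baseline, and none was a repeat of another. The changes of genes correlated between the 2 infections with r = 0.54 in OE19 and 0.55 in N87 (across genes, which are not independent replicates), while the difference between the lines correlated with r = 0.15 between replicate 1 and replicate 2. The 2000 entries of control guides, which have no target gene, had a median difference of 0.10, with changes of 0.19 in OE19 and 0.09 in N87, where sgRNAs of genes had medians of -0.01, 0.01 and 0.01. With 2 libraries a group, exchanging the times within lines gives 36 regroupings and a two-sided exact permutation p of at least 0.0556, so adjusted p-values below come from the model over all sgRNAs and the rank test over all genes.

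Across 20894 genes, 40 were lower in OE19 (0.191% of those tested) and 8 were higher in OE19 (0.0383%) at an adjusted p under 0.05. At an unadjusted p under 0.05 there were 1126 and 1087. All 48 kept the sign of their difference in each of the 4 pairings of an OE19 replicate with an N87 replicate, matched to baselines by replicate number. These pairings reuse the libraries that gave the calls, so they are no separate check. Within the lines, 319 genes were depleted in OE19 (1.53% of those tested) and 489 in N87 (2.34%), and 163 were depleted in both, which is 51.1% of the OE19 genes and 33.3% of the N87 genes. SgRNAs of 12 genes were gained in N87 (0.0574%) and of 0 genes in OE19 (0%), where 1042 were gained at an unadjusted p under 0.05 and DESeq2 also gave 0. A gene called in only 1 line seldom passed the test of the difference. Of 156 genes depleted in OE19 and not in N87, 19 were called lower in OE19, and of 326 depleted in N87 and not in OE19, 4 were called higher in OE19. Among the 163 depleted in both lines, CCDC84 was the 1 gene called, lower in OE19.

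**Figure D1:**
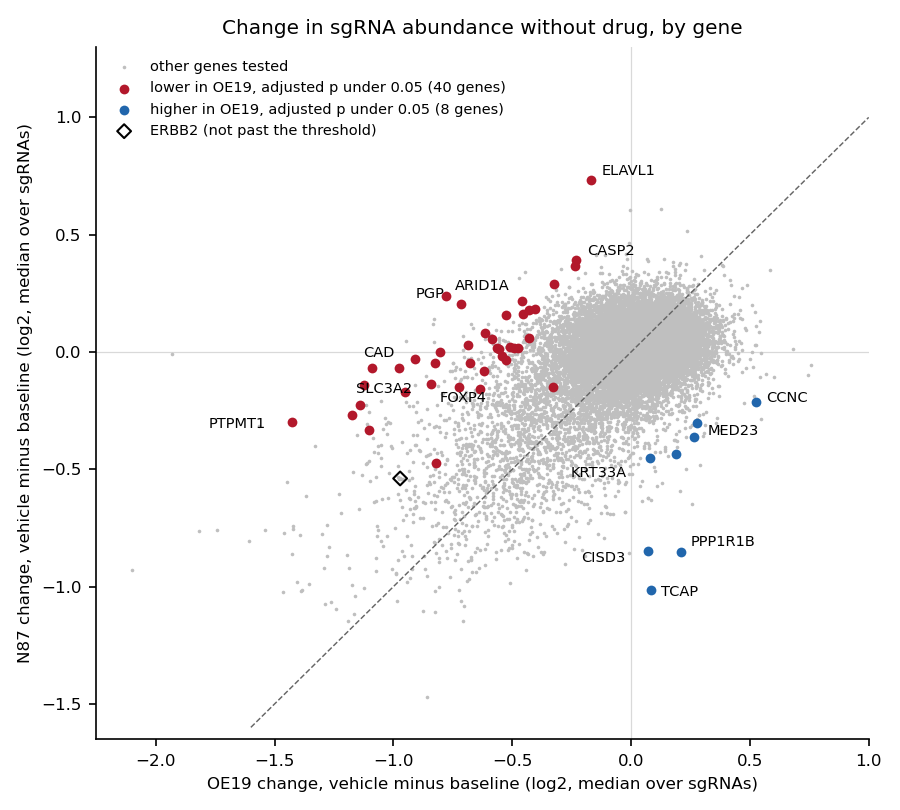
Change of each tested gene in OE19 (x axis) and N87 (y axis), vehicle minus baseline, as the median log2 over its sgRNAs. Red points are the 40 genes lower in OE19, blue points the 8 higher in OE19, the open diamond is ERBB2 and the dashed line marks equal change. SLC3A2, PTPMT1 and CAD lie far left, with changes of -1.14, -1.43 and -1.09 in OE19 and -0.23, -0.30 and -0.07 in N87, and TCAP, PPP1R1B and CISD3 lie below, with changes near 0 in OE19.

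The 40 genes lower in OE19 were of several kinds. In OE19 20 of them were also depleted within the line. ELAVL1 and CASP2 were gained in N87, and the other 18 passed neither test within a line. Among the 8 higher genes 4 were depleted in N87 and the other 4 passed no test within a line. The calls depended on single libraries. Without OE19 vehicle replicate 2, the shallowest library, 16 genes were lower, 14 of them among the 40, and without N87 baseline replicate 1 there were 25, 21 of them among the 40. Without the other libraries there were between 30 and 46. Calls of ARID1A, SLC3A2, PHF12, PTPMT1, C15orf41 and GATA6 held without each of the 8 libraries in turn.

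ARID1A, a DNA-binding subunit of the SWI/SNF chromatin remodelling complex (chr1:27019727-27108595, GRCh37 as for each position below), had among the lowest p of the genes lower in OE19. Its normalized counts were 107 and 152 in OE19 vehicle and 199 and 190.4 in OE19 baseline, and 238 and 286 in N87 vehicle and 236 and 217 in N87 baseline. Both OE19 vehicle libraries were thus below both baselines, while both N87 vehicle libraries were above theirs. The change was -0.78 in OE19 (adjusted p = 0.0245) and 0.24 in N87 (adjusted p = 0.565 for gain), and the difference was -1.08 ± 0.86 (SD over 6 sgRNAs, 6 of 6 negative, adjusted p = 7.37e-06). Of the 18 SWI/SNF genes tested, ARID1A was the 1 gene called, and the list had a median difference of 0.04, against -0.01 over all genes, that turned to -0.05 with control-guide scaling, which moved the median of all genes to -0.10. ARID1B, whose product takes the place of ARID1A in the same complex, had a difference of 0.07 and was gained in N87 by 0.29 (adjusted p = 0.0383). That call of gain depended on N87 vehicle replicate 2. SMARCD2, SMARCC2 and SMARCB1, other subunits, had differences of -0.43, -0.39 and -0.34 without passing the test (adjusted p = 0.12, 0.837 and 0.93). In the list 7 of 18 genes were negative, where 10734 of all 20894 genes were, and 40 of all genes were called lower. Values in the list ran up to 0.37, and ARID2 was at 0.26 with 0 of 6 sgRNAs negative. Of 45 genes that start within 1 Mb of ARID1A, 34 had a negative difference (median -0.11).

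SLC3A2 is the heavy chain of the CD98 amino acid transporters, which pairs with light chains such as SLC7A5 (LAT1, a carrier of large neutral amino acids) and SLC7A11 (the cystine carrier). SLC3A2 (chr11:62623476-62656352) had 52.1 and 54.3 normalized counts in OE19 vehicle against 158 and 160.5 in OE19 baseline, and 155 and 139 in N87 vehicle against 178 and 181 in N87 baseline. Its OE19 libraries stood apart by about the same amount in both infections, and its N87 vehicle libraries were a little below their baselines. The difference was -0.97 ± 0.44 (SD, 6 of 6 sgRNAs negative, adjusted p = 7.37e-06), from a change of -1.14 in OE19 (adjusted p = 1.9e-05) and -0.23 in N87 (adjusted p = 0.655). SLC7A5 (chr16:87863629-87903113) was lower too, with a difference of -0.47 ± 1.01 (adjusted p = 0.00943) and changes of -0.62 in OE19 and -0.08 in N87. Its sgRNAs disagreed, 4 of 6 being negative, and its call was lost without OE19 vehicle replicate 1 or 2, OE19 baseline replicate 2, N87 vehicle replicate 1 or N87 baseline replicate 1 (adjusted p up to 0.807). The other light chains did not pass. SLC7A11 had a difference of -0.32, SLC7A7 of -0.28, SLC7A6 of -0.26, SLC7A8 of -0.07 and SLC7A10 of -0.06. These light chains were picked after their values were seen.

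Nucleotide synthesis held 3 of the 40 genes. CAD carries the opening steps of pyrimidine synthesis on a single protein, DHODH oxidises dihydroorotate in the mitochondrion, UMPS completes UMP, and MTHFD1 supplies the carbon units that folate carries. CAD (chr2:27440237-27466811) had 91.0 and 112 normalized counts in OE19 vehicle against 218 and 221 in OE19 baseline, and 177 and 211 in N87 vehicle against 218 and 221 in N87 baseline. The baselines of the lines were alike for CAD, and the lowest N87 vehicle library was above the highest OE19 vehicle library. The difference was -0.93 ± 0.58 (SD, 6 of 6 sgRNAs negative, adjusted p = 0.00298). DHODH (chr16:72042487-72061563) had 59.0 and 121 in OE19 vehicle against 192 and 214 in OE19 baseline, and 205 and 225 in N87 vehicle against 223 and 217 in N87 baseline. Its difference was -0.77 ± 0.59 (6 of 6 sgRNAs negative, adjusted p = 0.0146). MTHFD1 (chr14:64854749-64930175) had a difference of -0.63 ± 0.57 (adjusted p = 0.0412), with 215 and 182 in OE19 vehicle against 252 and 274 in OE19 baseline, and 254 and 267 in N87 vehicle against 299 and 273 in N87 baseline. For MTHFD1 the N87 vehicle libraries were below their baselines as well.

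Over the 20 genes of nucleotide synthesis tested, 3 were called lower in OE19, 0 higher, and 18 had a negative difference, where 40 of all 20894 genes were called lower and 10734 were negative. Their median was -0.22 (-0.01 over all genes) with a range of -0.93 to 0.11. The median change was -0.33 in OE19 and -0.08 in N87, and the median difference stayed negative with each scaling. Genes of purine synthesis were on the same side without passing the test. PPAT, which starts the pathway, had a difference of -0.48 (adjusted p = 0.0720), GART of -0.37 (0.102) and PAICS of -0.33 (0.907). UMPS had a difference of -0.33 with 4 of 6 sgRNAs negative (adjusted p = 0.0675). IMPDH2, which leads to guanine nucleotides, had a difference of 0.11 and ADSS of 0.03. FPGS, which adds glutamates to folate so that cells retain it, was lower outside this list, with a difference of -0.58 ± 0.66 (adjusted p = 0.00595) and 143 and 129.8 normalized counts in OE19 vehicle against 198 and 209 in OE19 baseline. In N87 FPGS had 194 and 180.1 in vehicle and 194 and 202 in baseline. CAD lost its call without OE19 vehicle replicate 1 (adjusted p = 0.0546) and FPGS without OE19 vehicle replicate 2 or N87 vehicle replicate 2 (up to 0.297). DHODH lost it without OE19 baseline replicate 2, either N87 vehicle replicate or N87 baseline replicate 2 (up to 0.19), and MTHFD1 without either OE19 vehicle replicate, OE19 baseline replicate 2, N87 vehicle replicate 1 or N87 baseline replicate 2 (up to 0.406) and with control-guide scaling (0.0706).

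Mitochondrial genes among the 40 included PTPMT1, MSTO1 and SDHC. Genes that start within 1 Mb of MSTO1 and SDHC leaned the same way, with median differences of -0.14 (49 of 61 negative) and -0.13 (31 of 45 negative). Around PTPMT1 the median was 0.03 (17 of 35 negative). The part of position in these calls was not tested. PTPMT1 makes phosphatidylglycerol on the way to cardiolipin, the lipid of the inner membrane. PTPMT1 (chr11:47586982-47595013) had 87.8 and 81.9 normalized counts in OE19 vehicle against 230.5 and 249 in OE19 baseline, and 204 and 174 in N87 vehicle against 241 and 235 in N87 baseline. The vehicle libraries were below baseline in both lines, with changes of -1.43 in OE19 (adjusted p = 0.000239) and -0.30 in N87 (adjusted p = 0.0878) and a difference of -1.04 ± 0.61 (6 of 6 sgRNAs negative, adjusted p = 0.000886). MSTO1, a protein of mitochondrial distribution, had 64.5 and 99.5 in OE19 vehicle against 157 and 170.4 in OE19 baseline, and 116 and 121 in N87 vehicle against 148 and 126 in N87 baseline (difference -1.01 ± 0.83, adjusted p = 0.00298). MSTO1 has a near-identical pseudogene, so its sgRNAs may cut elsewhere too, and its call was lost without OE19 vehicle replicate 1 (adjusted p = 0.0924). SDHC, an anchor subunit of succinate dehydrogenase (complex II of the respiratory chain), is at chr1:161284171-161332996. It had 165 and 207 in OE19 vehicle against 349.5 and 348 in OE19 baseline, and 333 and 378 in N87 vehicle against 346 and 348 in N87 baseline, and differed by -0.71 ± 0.36 (6 of 6 sgRNAs negative, adjusted p = 0.0354). SDHC lost its call without OE19 vehicle replicate 1, OE19 baseline replicate 2, N87 vehicle replicate 2 or N87 baseline replicate 1 (adjusted p up to 0.431) and with control-guide scaling (0.0576).

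Of 82 genes of oxidative phosphorylation, 1 was called lower and 0 higher (40 and 8 of all 20894 genes), with a median difference of -0.04 and 47 of 82 negative. At an unadjusted p under 0.05, 11 were lower and 2 higher, where 1126 and 1087 of all 20894 genes were. The other parts of complex II were negative without passing the test, SDHB at -0.56 (adjusted p = 0.321), SDHA at -0.44 (0.0877), the assembly factor SDHAF2 at -0.35 (0.148) and SDHD at -0.32 (0.679), and they were set side by side after the value of SDHC was known. Of 75 mitochondrial ribosomal proteins, 0 were called in either direction and 15 were lower and 2 higher at an unadjusted p under 0.05. Their median difference was -0.11, with 56 of 75 negative (10734 of 20894 over all genes), and the median change was -0.34 in OE19 and -0.22 in N87.

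GATA6 is a transcription factor of the stomach and gut lining. Its normalized counts (chr18:19749550-19782491) were 104 and 119 in OE19 vehicle against 156 and 155 in OE19 baseline, and 208 and 178 in N87 vehicle against 165 and 169 in N87 baseline, so that the vehicle libraries were below baseline in OE19 and above it in N87. The difference was -0.62 ± 0.64 (SD over 5 sgRNAs, 4 of 5 negative, adjusted p = 0.00298), although neither line alone passed (adjusted p = 0.0864 for loss in OE19). GATA6 was the 1 gene called among 22 lineage transcription factors, whose median difference was -0.07 with 12 of 22 negative. Over all 20894 genes, 40 were called lower, 10734 had a negative difference and the median was -0.01. HNF4A, a nuclear receptor of the same lineages, came close, with a difference of -0.58 ± 0.58 (5 of 6 sgRNAs negative, adjusted p = 0.0720) and changes of -0.52 in OE19 and 0.02 in N87. GATA4, CDX2, KLF5 and SOX9 had differences of 0.02, -0.10, -0.21 and -0.19 and did not pass. KLF5 had changes of -0.60 in OE19 and -0.48 in N87, and GRHL2 of -0.42 in OE19 and -0.39 in N87.

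FLCN (folliculin) and DEPDC5 both act on mTORC1 through the Rag GTPases, FLCN as an activator of RagC and RagD and DEPDC5 as a part of GATOR1, which switches mTORC1 off. FLCN (chr17:17115526-17140502) had 108 and 133 normalized counts in OE19 vehicle against 166 and 189 in OE19 baseline, and 174 and 176 in N87 vehicle against 183 and 197 in N87 baseline, a difference of -0.62 ± 0.73 (5 of 6 sgRNAs negative, adjusted p = 0.00378). DEPDC5 (chr22:32149853-32304019) had 167 and 198 in OE19 vehicle against 209 and 206 in OE19 baseline, and 228 and 255 in N87 vehicle against 200.5 and 181 in N87 baseline. It differed by -0.54 ± 0.32 (6 of 6 sgRNAs negative, adjusted p = 0.0357), with changes of -0.24 in OE19 and 0.37 in N87 (adjusted p = 0.0549 for gain). For FLCN the vehicle libraries were clearly below baseline in OE19 and near it in N87, while for DEPDC5 they were below it in OE19 and above it in N87. Of 25 genes that start within 1 Mb of FLCN, 22 had a negative difference (median -0.26). Around DEPDC5, 12 of 26 did (median 0.05). The part of position was not tested. The other GATOR1 subunits were NPRL2, with a difference of -0.47 (adjusted p = 0.299), and NPRL3, with -0.03 (0.904). The GATOR1 subunits were put together after their values were seen. TSC2 was at -0.26, TSC1 at -0.11 and NF1 at -0.02. STK11 (LKB1) had the opposite sign, 0.53 with 0 of 6 sgRNAs negative (adjusted p = 0.197). In the list of 20 brakes on Ras, PI3K, mTOR and Src, DEPDC5 was the 1 gene called, 15 had a negative difference and the median was -0.10. Over all 20894 genes, 40 were called lower, 10734 had a negative difference and the median was -0.01. FLCN lost its call without OE19 vehicle replicate 1 or 2 (adjusted p up to 0.134), and DEPDC5 without each library but OE19 baseline replicate 2 (up to 0.769).

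GPX4, which reduces lipid peroxides and so prevents ferroptosis, had 75.5 and 109 normalized counts in OE19 vehicle against 201 and 219 in OE19 baseline, and 183 and 195 in N87 vehicle against 197 and 199 in N87 baseline (chr19:1103981-1106790). Vehicle libraries were below baseline in both lines, with changes of -0.82 in OE19 (adjusted p = 0.0232) and -0.48 in N87 (adjusted p = 0.901). The difference was -0.71 ± 0.61 (4 of 5 sgRNAs negative, adjusted p = 0.0306). GPX4 was the 1 gene called of 13 in the list of GPX4, selenoprotein and glutathione genes, whose median difference was -0.24 with 10 of 13 negative, and whose median change was -0.24 in OE19 and -0.02 in N87. Over all 20894 genes, 40 were called lower, 10734 had a negative difference and the median was -0.01. EEFSEC and PSTK, used to place selenocysteine, had differences of -0.43 and -0.35, and GCLC of glutathione synthesis had -0.27, none past the test. GPX4 was called without OE19 vehicle replicate 2 or OE19 baseline replicate 2 and lost its call without each of the other 6 libraries (adjusted p up to 0.434).

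Further genes lower in OE19 act in chromatin, splicing, the centriole and metabolite repair. PHF12, a zinc finger protein of SIN3 deacetylase complexes (chr17:27232268-27278789), had 83.7 and 87.5 normalized counts in OE19 vehicle against 187 and 213 in OE19 baseline, and 229 and 301 in N87 vehicle against 226 and 208 in N87 baseline (difference -0.68 ± 1.10, adjusted p = 0.000886). Its sgRNAs differed widely, 5 of 6 being negative. PGP, a phosphatase that clears phosphoglycolate (chr16:2261594-2264841), had 103 and 109 in OE19 vehicle against 164 and 186 in OE19 baseline, and 202 and 239 in N87 vehicle against 176 and 176 in N87 baseline (difference -0.94 ± 0.30, 6 of 6 sgRNAs negative, adjusted p = 0.000886), but lost its call without OE19 vehicle replicate 2 (0.297). CEP120, a centriole protein, had a difference of -0.48 ± 0.66 (adjusted p = 0.0049, and 0.0614 without OE19 vehicle replicate 2). KAT7, a histone acetyltransferase, differed by -0.72 ± 0.62 (adjusted p = 0.0361), and ZRSR2, a factor of the minor spliceosome, by -0.53 ± 0.92 (0.0129, and 0.0701 without N87 vehicle replicate 2). The median counts of KAT7 overlapped between vehicle and baseline in both lines. They were 142 and 129.8 in OE19 vehicle against 155 and 132 in OE19 baseline, and 155 and 172 in N87 vehicle against 150 and 156 in N87 baseline. KAT7 lost its call without each library but OE19 baseline replicate 2 and N87 vehicle replicate 1.

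EXOSC1, a subunit of the RNA exosome (chr10:99195666-99205774), had 103 and 143 normalized counts in OE19 vehicle against 240.3 and 211 in OE19 baseline, and 217 and 197 in N87 vehicle against 237 and 222 in N87 baseline (difference -0.76 ± 0.50, adjusted p = 0.0146). NOP9, a factor of small ribosomal subunit assembly (chr14:24769056-24778330), had 113 and 134 in OE19 vehicle against 174 and 164 in OE19 baseline, and 165 and 158 in N87 vehicle against 146 and 179.7 in N87 baseline (-0.68 ± 0.64, 0.0196). PDCD2, a chaperone of a ribosomal protein (chr6:170884383-170893780), had 79.6 and 81.1 in OE19 vehicle against 163 and 163 in OE19 baseline, and 171 and 144 in N87 vehicle against 191 and 162 in N87 baseline (-0.66 ± 0.41, 5 of 5 sgRNAs negative, 0.0146). CCDC84, a protein of the spliceosome and the centrosome (chr11:118868848-118886503), had 72.7 and 71.3 in OE19 vehicle against 173 and 192 in OE19 baseline, and 160.2 and 171 in N87 vehicle against 227 and 199.8 in N87 baseline (-0.68 ± 0.66, 6 of 6 sgRNAs negative, 0.0422). For EXOSC1, PDCD2 and CCDC84 each OE19 vehicle library was below each of the other 6 libraries. PDCD2 lost its call without OE19 vehicle replicate 2 or N87 vehicle replicate 1 (up to 0.0958) and with DESeq2 (0.0791). NOP9 lost it without either OE19 vehicle library, N87 vehicle replicate 1 or N87 baseline replicate 1 (up to 0.361), CCDC84 without either OE19 vehicle library, OE19 baseline replicate 2, N87 vehicle replicate 2 or N87 baseline replicate 1 (up to 0.421) and EXOSC1 without either OE19 vehicle library, either N87 vehicle library or N87 baseline replicate 1 (up to 0.383). Other lower genes were DNAJB6, a chaperone of the HSP40 family (-0.74 ± 0.53, 0.0357), SEC24C of the COPII coat (-0.62 ± 0.29, 0.0357), USP12, a deubiquitinase (-0.62 ± 0.38, 0.0354), COMMD3 (-0.52 ± 0.47, 0.0146), C11orf73 (-0.55 ± 0.69, 0.0405) and TIAF1 (-1.03 ± 0.63, 0.0286). Each of these 6 lost its call without at least 6 of the 8 libraries, OE19 vehicle replicate 2 and N87 vehicle replicate 2 among them (adjusted p up to 1 for DNAJB6, SEC24C and COMMD3, 0.241 for USP12, 0.477 for C11orf73 and 0.378 for TIAF1), and C11orf73 also lost it with the replicate block (0.0669).

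C15orf41 (now CDIN1), a nuclear protein known for congenital anaemia, was called on few sgRNAs. Its median counts were 166 and 208 in OE19 vehicle against 381 and 377 in OE19 baseline, and 330.4 and 380.4 in N87 vehicle against 402 and 399.5 in N87 baseline, but its median difference was -0.29 ± 0.74 with 4 of 6 sgRNAs negative (adjusted p = 0.000886). At the level of single sgRNAs, 4 of 122902 were lower (0.00325%) and 0 higher (0%) at an adjusted p under 0.05, against 4161 and 2923 at an unadjusted p under 0.05, and DESeq2 called 38 and 3 and the replicate block 79 and 9. Without OE19 vehicle replicate 2 there were 622 and 331, and without the other libraries 0 to 7 and 0 to 1. An sgRNA of C15orf41 was among the 4, with 135 and 227 normalized counts in OE19 vehicle against 641 and 727 in OE19 baseline, and 629 and 552 in N87 vehicle against 712 and 659.8 in N87 baseline (log2 difference -1.74, adjusted p = 0.02). The other 3 were against UMPS, with 98.8 and 119 in OE19 vehicle against 340.3 and 386 in OE19 baseline, and 317 and 358 in N87 vehicle against 341 and 338 in N87 baseline (-1.75), against SDHA (-2.69), and against UXS1, which makes UDP-xylose (-3.05). The sgRNA of SDHA had 22.9 and 38.1 in OE19 vehicle against 158 and 139 in OE19 baseline, and 164 and 184 in N87 vehicle against 134 and 138 in N87 baseline. That of UXS1 had 15.6 and 15.5 in OE19 vehicle against 109.8 and 109 in OE19 baseline, and 96.2 and 81.5 in N87 vehicle against 80.3 and 70.5 in N87 baseline. Each of the 4 was lost in both OE19 infections, and none of the 3 genes UMPS, SDHA and UXS1 was called as a gene.

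ELAVL1 and CASP2 were called lower in OE19 with their largest movement in N87. Their calls of gain in N87 depended on N87 vehicle replicate 2. ELAVL1 encodes HuR, which binds AU-rich messenger RNAs (chr19:8023457-8070543). It had 144 and 178 normalized counts in OE19 vehicle against 188 and 199 in OE19 baseline, and 252 and 480.0 in N87 vehicle against 198 and 226 in N87 baseline. The N87 vehicle libraries were both above baseline but far from each other. The change was -0.17 in OE19 and 0.74 in N87 (adjusted p = 1.29e-06 for gain), and the difference was -0.90 ± 0.49 (6 of 6 sgRNAs negative, adjusted p = 0.00697). CASP2, the caspase of the PIDDosome (chr7:142985308-143004789), had 238 and 235 in OE19 vehicle against 284 and 281 in OE19 baseline, and 357 and 422 in N87 vehicle against 263 and 320.3 in N87 baseline (difference -0.63 ± 0.47, adjusted p = 0.0286; change in N87 0.39, adjusted p = 0.00158 for gain). ELAVL1 lost its call without OE19 vehicle replicate 2, N87 vehicle replicate 2 or N87 baseline replicate 1 (adjusted p up to 0.702), and CASP2 without the same libraries or OE19 baseline replicate 1 (up to 0.744).

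**Figure D2:**
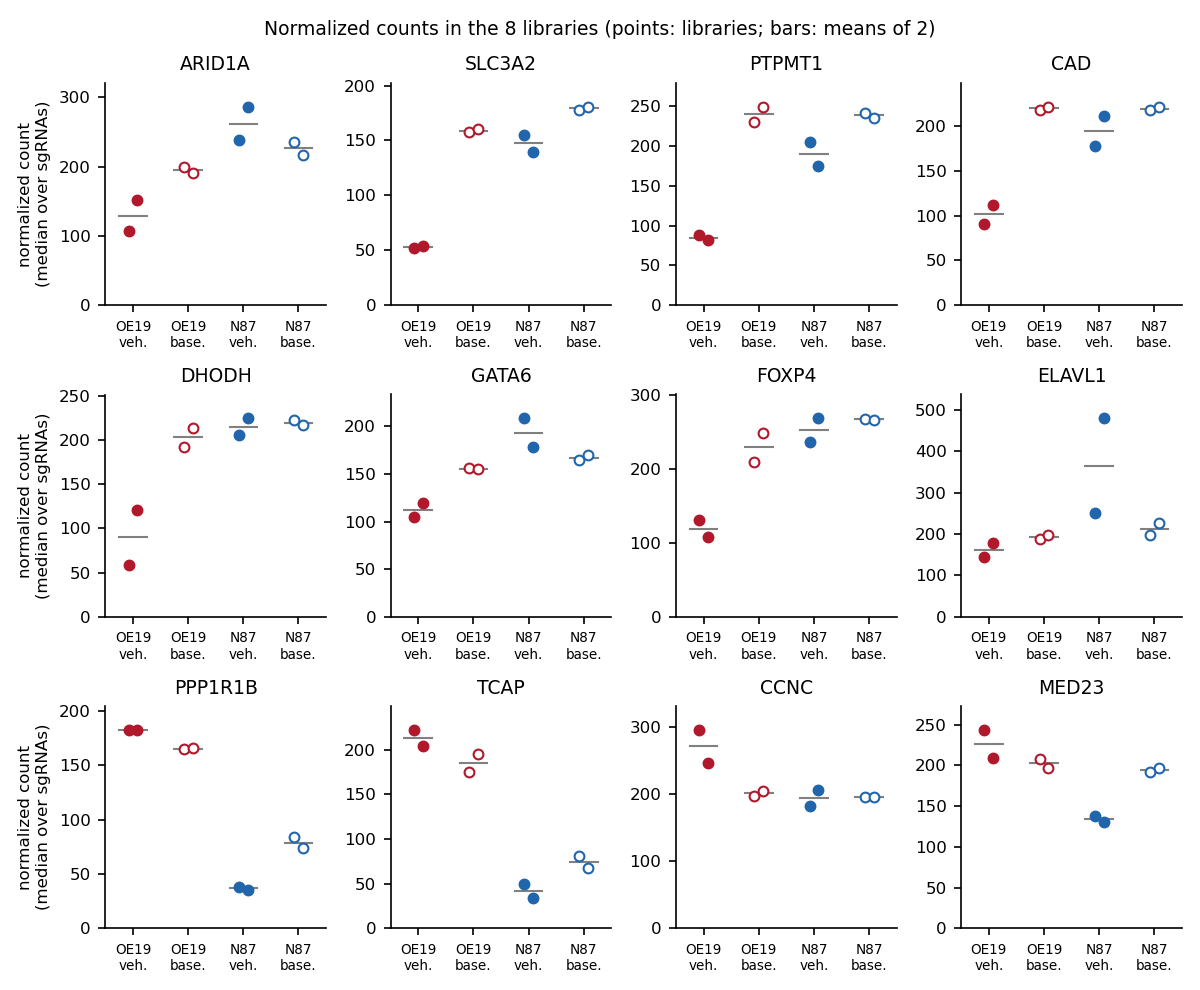
Normalized counts (median over the sgRNAs of a gene) of 12 genes in the 8 libraries, OE19 in red and N87 in blue, vehicle filled and baseline open, with bars at the means of 2 libraries. SLC3A2, PTPMT1 and CAD are far below baseline in OE19 vehicle and a little below it in N87 vehicle, ELAVL1 is above baseline in N87 vehicle and not in OE19 vehicle, and PPP1R1B and TCAP are already lower in N87 at baseline.

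On the higher side, 5 of the 8 genes lie on chromosome 17 near ERBB2, the gene of HER2. PPP1R1B encodes DARPP-32, a phosphatase inhibitor of dopamine-responsive neurons (chr17:37782993-37792879). Its normalized counts were 182 and 183 in OE19 vehicle against 165 and 166 in OE19 baseline, and 38.5 and 35.1 in N87 vehicle against 83.8 and 74.0 in N87 baseline. TCAP, a protein of the muscle sarcomere (chr17:37821602-37822807), had 222 and 205 in OE19 vehicle against 175 and 196 in OE19 baseline, and 50.0 and 33.5 in N87 vehicle against 80.7 and 67.5 in N87 baseline. For both, the N87 vehicle libraries were below the N87 baselines without overlap, and the OE19 vehicle libraries were above theirs. PPP1R1B had a difference of 1.04 ± 0.55 and TCAP of 1.04 ± 0.43 (SD, 0 of 6 sgRNAs negative and adjusted p = 6.48e-05 for each). PNMT, the enzyme that makes adrenaline (chr17:37824234-37826728), had 369.6 and 416 in OE19 vehicle against 369 and 354 in OE19 baseline, and 92.8 and 96.5 in N87 vehicle against 195 and 144 in N87 baseline (difference 0.68 ± 0.49, adjusted p = 0.009). CISD3, a mitochondrial iron-sulfur protein (chr17:36886594-36891858), had 150.5 and 198 in OE19 vehicle against 174 and 165 in OE19 baseline, and 47.1 and 41.8 in N87 vehicle against 87.6 and 81.4 in N87 baseline (difference 0.83 ± 0.82, adjusted p = 0.0123). KRT33A, a hair keratin (chr17:39502344-39507080), had a difference of 0.47 ± 0.24 (0 of 6 sgRNAs negative, adjusted p = 0.0463).

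The sgRNAs of these genes were also rarer in N87 than in OE19 at baseline. The log2 baseline difference, OE19 minus N87, was 1.58 for TCAP, 1.20 for PPP1R1B, 1.19 for PNMT and 1.00 for CISD3, where the 5th to 95th percentile over all genes was -0.14 to 0.21. The count of higher genes depended on each library but OE19 baseline replicate 1 and N87 baseline replicate 2. It was 2 without OE19 vehicle replicate 1, 1 without OE19 vehicle replicate 2, OE19 baseline replicate 2 or N87 vehicle replicate 2, 0 without N87 baseline replicate 1 and 27 without N87 vehicle replicate 1, and it was 6 and 11 without the others. TCAP was called without 5 of the 8 libraries (adjusted p up to 0.314 without OE19 vehicle replicate 2, N87 vehicle replicate 2 or N87 baseline replicate 1), PPP1R1B without 4 (up to 0.764), PNMT and CISD3 without 3 (up to 0.516 and 0.753) and KRT33A without 2 (up to 0.996). With all libraries, CISD3 lost its call with the stricter filter (0.244), and KRT33A with that filter, both other rank limits and control-guide scaling (up to 0.131).

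ERBB2 itself (chr17:37844167-37886679) was not called. It had 59.5 and 76.9 normalized counts in OE19 vehicle against 136 and 144 in OE19 baseline, and 58.7 and 34.6 in N87 vehicle against 83.0 and 63.5 in N87 baseline. The vehicle libraries were below baseline in both lines, by -0.97 ± 0.69 in OE19 (adjusted p = 0.0131) and by -0.54 ± 0.34 in N87 (adjusted p = 0.573), and the difference was -0.57 ± 0.55 (4 of 6 sgRNAs negative, adjusted p = 1). The sgRNAs of ERBB2 were already rarer in N87 at baseline, with a log2 baseline difference, OE19 minus N87, of 0.91. The 95th percentile over all genes was 0.21. Any loss before baseline is not part of the changes given for ERBB2. The genes next to it did not follow a common direction. PGAP3, ERBB2, MIEN1 and GRB7, set together after their values were seen, had a median change of -0.97 in OE19 and -0.58 in N87. Their median baseline difference was 0.94. MIEN1 was depleted in OE19 with a change of -1.37 (adjusted p = 0.00252) against -0.62 in N87. Just before them, NEUROD2, STARD3, PPP1R1B, TCAP and PNMT had changes of 0.09, -0.05, 0.21, 0.08 and 0.19 in OE19 and of -0.85, -0.48, -0.85, -1.01 and -0.44 in N87.

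By stretch, the 24 genes that start within 1 Mb before ERBB2 had a median difference of 0.29, with changes of -0.02 in OE19 and -0.43 in N87, and a baseline difference of 1.03 that was positive in all 24. The 27 genes from ERBB2 to 1 Mb after it had a median difference of 0.12. The 59 genes from 1 to 1.9 Mb after it, many of them keratin and keratin-associated genes, had a median of 0.21 with 57 of 59 positive, a change of 0.04 in OE19 and -0.11 in N87 and a baseline difference of 0.44. Some keratin-associated genes and KRT16 and KRT17 have near-identical relatives, so their sgRNAs may cut more than 1 gene. The sign turned over the next 12 genes, from 1.9 to 2.2 Mb after ERBB2, with a median difference of -0.44 and changes of -0.71 in OE19 and -0.26 in N87. In this stretch 4 genes were depleted in OE19 and 0 in N87, and NT5C3B, a nucleotidase (chr17:39981309-39992512), was called lower in OE19 (-0.85 ± 0.93, adjusted p = 0.0357, and 0.0695 with the replicate block). NT5C3B had 76.8 and 70.6 normalized counts in OE19 vehicle against 141 and 135 in OE19 baseline, and 130.3 and 118 in N87 vehicle against 131 and 138 in N87 baseline. It lost its call without OE19 vehicle replicate 2, N87 vehicle replicate 2 or N87 baseline replicate 1 (up to 0.565). FKBP10 and LEPREL4 beside it had differences of -0.92 and -0.75. The bounds of the stretches were set after the values were seen, and the part of DNA copy number in any of them was not tested.

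**Figure D3:**
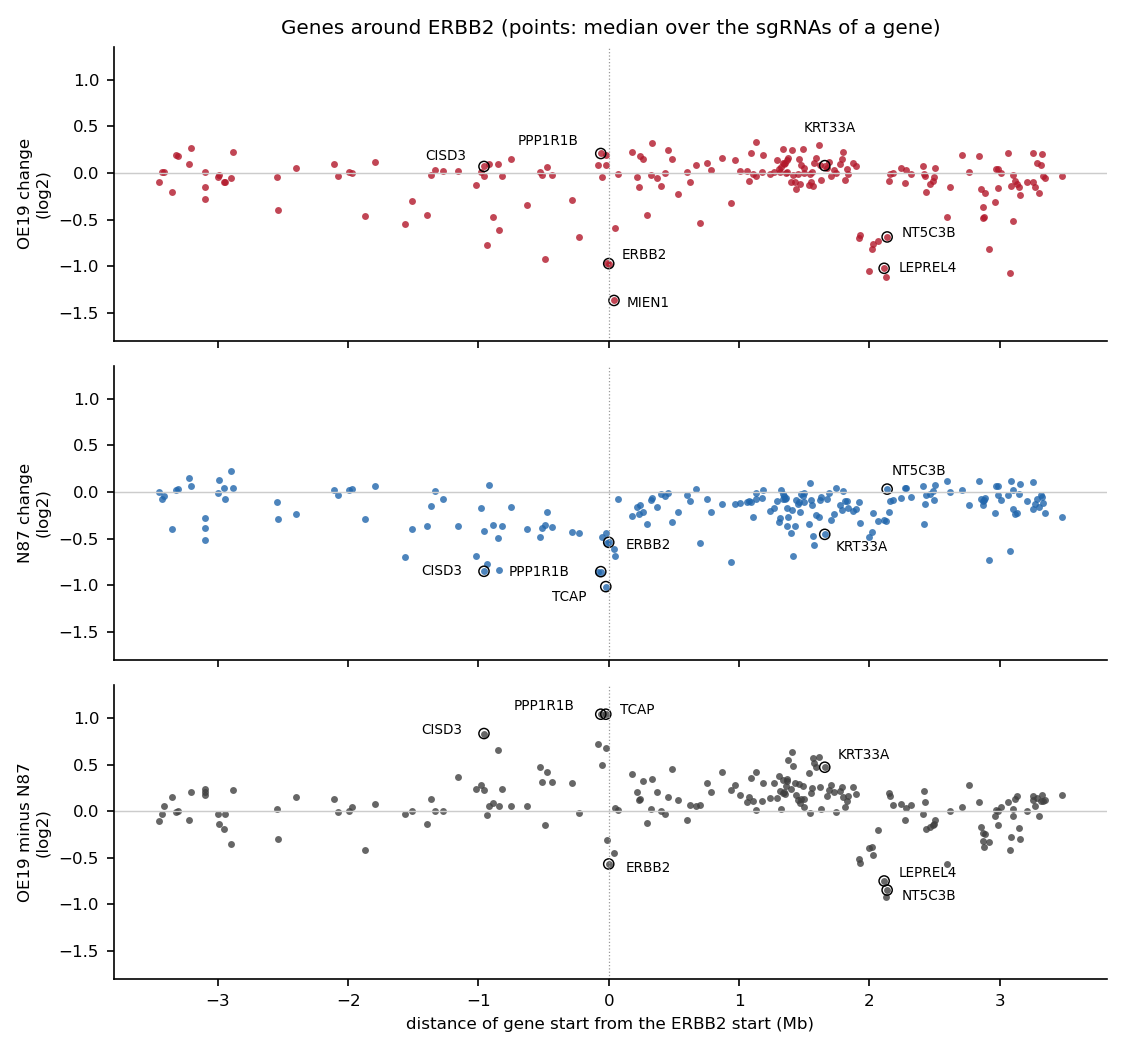
Genes within 3.5 Mb of the ERBB2 start by distance in Mb (x axis), as the log2 change in OE19 (top), the log2 change in N87 (middle) and the difference OE19 minus N87 (bottom), each point the median over the sgRNAs of a gene. Genes before ERBB2 lie lower in N87, a group about 2 Mb after it lies lower in OE19, and ERBB2 and MIEN1 lie low in OE19.

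The other 3 higher genes were CCNC, MED23 and HTT. CCNC is cyclin C, the partner of CDK8 in the kinase module of Mediator, the complex that links transcription factors to RNA polymerase II, and MED23 is a subunit of its tail. CCNC (chr6:99990263-100016701) had 296 and 247 normalized counts in OE19 vehicle against 198 and 205 in OE19 baseline, and 183 and 206 in N87 vehicle against 196 and 196 in N87 baseline. Its vehicle libraries were above baseline in OE19 and on both sides of it in N87 (difference 0.63 ± 0.27, 0 of 6 sgRNAs negative, adjusted p = 0.0463). MED23 (chr6:131895106-131949382) had 244 and 209.6 in OE19 vehicle against 208 and 197 in OE19 baseline, and 139 and 130.1 in N87 vehicle against 192 and 196 in N87 baseline (difference 0.71 ± 0.32, 0 of 6 sgRNAs negative, adjusted p = 0.0463). Here the N87 vehicle libraries lay below the baselines. HTT, huntingtin, had a difference of 0.50 ± 0.72 (adjusted p = 0.0463). CDK8 had a difference of 0.41 (adjusted p = 0.416) and MED16, also of the tail, of 0.49 (0.847), while MED19 was at -0.44 and MED8 at -0.39. In the rest of the kinase module, MED13L was at 0.17, MED13 at 0.07, CDK19 at -0.02 and MED12 at -0.03, none past the test. The genes of the kinase module were set together after their values were seen. The 31 Mediator genes had a median difference of 0.07, or -0.02 with control-guide scaling, and a median change of -0.22 in both OE19 and N87. MED14, the scaffold of the complex, was depleted in both lines (adjusted p = 0.0108 in OE19 and 0.00138 in N87). MED23 lost its call without any of the 8 libraries, HTT without each but N87 baseline replicate 2, and CCNC without each but OE19 baseline replicate 1 and N87 vehicle replicate 1 (adjusted p up to 0.762, 0.944 and 0.78). With all libraries, CCNC, HTT and MED23 also lost their calls with both other rank limits and with the stricter filter, HTT and MED23 with control-guide scaling, and MED23 with DESeq2 and with the replicate block (up to 0.0621 for CCNC, 0.079 for HTT and 0.098 for MED23).

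Neighbouring genes also had like differences in parts of the genome away from ERBB2. Of 516 windows of 5 Mb with at least 10 genes, medians ranged from -0.09 to 0.08 between the 5th and 95th percentile. The lowest was on the short arm of chromosome 6 from 40 to 45 Mb, with a median difference of -0.32 over 81 genes, 74 of them negative, and changes of -0.37 in OE19 and -0.02 in N87. The baseline difference there was -0.02. This window held 4 of the 40 lower genes. FOXP4, a forkhead transcription factor (chr6:41514119-41570122), had 131 and 108 normalized counts in OE19 vehicle against 210.4 and 249 in OE19 baseline, and 236 and 269 in N87 vehicle against 268 and 267 in N87 baseline (difference -0.81 ± 0.35, 6 of 6 sgRNAs negative, adjusted p = 0.000967). PRICKLE4 (chr6:41748520-41755190) differed by -0.64 ± 0.37 (0.00378), PTK7, a Wnt co-receptor (chr6:43044045-43129457), by -0.68 ± 0.72 (0.00971), and TREM1, a receptor of myeloid cells (chr6:41235664-41254420), by -0.60 ± 0.61 (0.0357). FOXP4 lost its call without OE19 vehicle replicate 2 (0.413). PTK7 lost it without replicate 1 of OE19 vehicle, OE19 baseline or N87 baseline, or N87 vehicle replicate 2 (up to 0.157), TREM1 without OE19 vehicle replicate 2, either N87 vehicle library or N87 baseline replicate 1 (up to 0.815), and PRICKLE4 without either OE19 vehicle library, OE19 baseline replicate 1, N87 vehicle replicate 1 or N87 baseline replicate 2 (up to 0.522).

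On the short arm of chromosome 17, the window from 15 to 20 Mb had a median difference of -0.21 over 69 genes, 59 of them negative, with changes of -0.14 in OE19 and 0.04 in N87, and the next window, from 20 to 25 Mb, had -0.22 over 10 genes. FLCN, RASD1, a Ras-related protein (-0.62 ± 0.70, adjusted p = 0.0294), and SLC5A10, a sugar transporter (-0.56 ± 0.45, 0.0196), lie in the first of these. RASD1 lost its call without any of the 4 OE19 libraries, N87 vehicle replicate 2 or N87 baseline replicate 1 (up to 0.884), and SLC5A10 without either OE19 vehicle library, N87 vehicle replicate 1 or N87 baseline replicate 1 (up to 0.297). The highest window was chromosome 17 from 35 to 40 Mb, around ERBB2, with a median of 0.16 over 137 genes, 26 of them negative. The stretches on 6p, 17p and around ERBB2 kept their sign with each scaling. Outside chromosome 6 from 40 to 45 Mb and the whole of chromosome 17 from 15 to 40 Mb, 18350 genes had a median difference of -0.01, and 30 of the 40 lower and 3 of the 8 higher genes were among them. Copy number was not analysed, so its part in these windows was not tested.

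**Figure D4:**
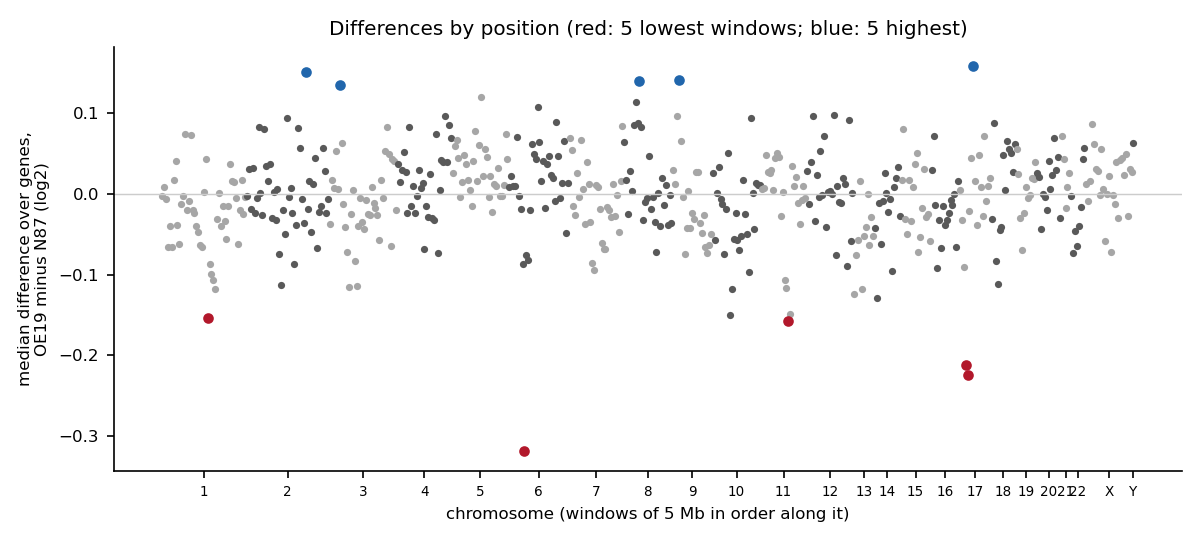
Median difference (log2, OE19 minus N87) of the genes in each of 516 windows of 5 Mb, in order along the chromosomes. The 5 lowest windows are red and the 5 highest blue, and the window on chromosome 6 at -0.32 lies farthest from 0.

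Genes of core machinery, which cells of any kind need, had similar medians in both lines in 4 lists. The median change was -0.49 in OE19 and -0.43 in N87 over 87 cytosolic ribosomal proteins, -0.37 in OE19 and -0.36 in N87 over 31 proteasome genes. It was -0.52 in both lines over 20 cytosolic aminoacyl-tRNA synthetases, and -0.45 in OE19 and -0.47 in N87 over 15 genes of the vacuolar ATPase. None of these 4 lists had a gene called in either direction, where 40 of all 20894 genes were called lower and 8 higher. The 376 olfactory receptor genes, which these cells do not use, had medians of 0.05 in OE19 and 0.06 in N87. More members passed the test of depletion in N87 than in OE19 for each of these 4 lists, 15 in OE19 against 24 in N87 for ribosomal proteins, 1 in OE19 against 4 in N87 for the proteasome, 7 in OE19 against 12 in N87 for the synthetases and 2 in OE19 against 6 in N87 for the vacuolar ATPase. The replicate spread also differed between the lines. These counts are not used here as a measure of need, and why they were higher in N87 was not tested. The median differences were -0.03 for ribosomal proteins, 0.09 for the proteasome, 0.01 for the synthetases and 0.13 for the vacuolar ATPase. Control-guide scaling moved the median of all genes to -0.10 and with it the proteasome and synthetase medians below 0. Among the other core lists, chaperones had a median change of -0.42 in OE19 and -0.56 in N87. The spliceosome core had -0.31 in OE19 and -0.41 in N87. DNA replication had -0.34 in OE19 and -0.39 in N87, and RNA polymerase II -0.39 in OE19 and -0.41 in N87.

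**Figure D5:**
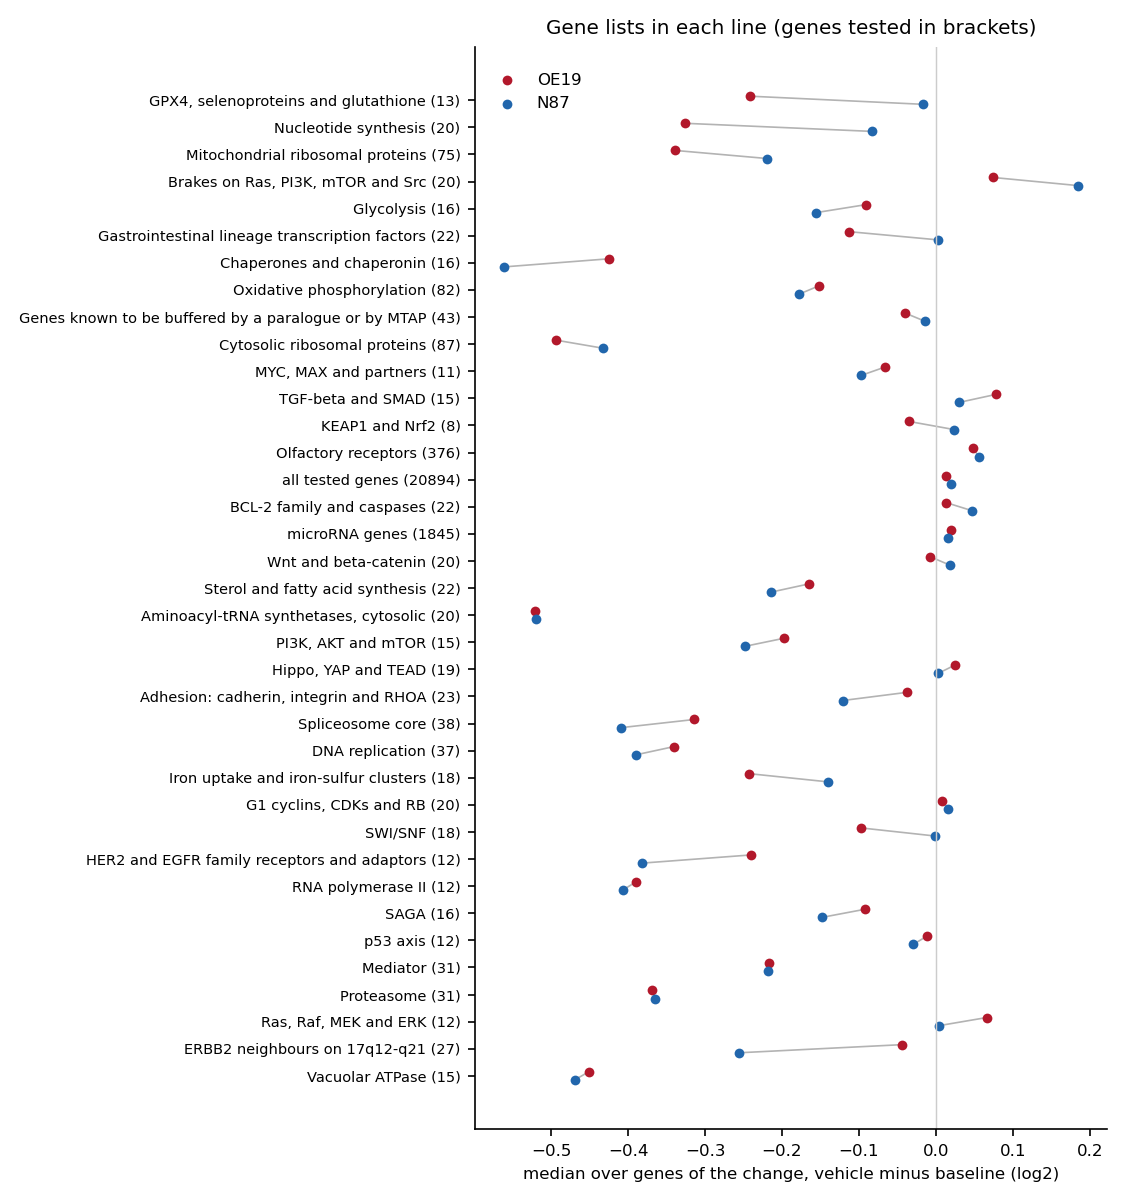
Median change, vehicle minus baseline (log2), of each gene list in OE19 (red) and N87 (blue), with the number of genes tested in brackets, ordered by the median difference from lowest at the top. The lists of nucleotide synthesis (-0.33 in OE19 and -0.08 in N87) and of GPX4, selenoproteins and glutathione (-0.24 in OE19 and -0.02 in N87) lie apart between the lines, while core machinery lies at low values in both.

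The lists for signalling by HER2 and its relatives, through adaptors to Ras and PI3K, held no called gene. Over all 20894 genes, 40 were called lower and 8 higher, so lists of this size would seldom hold a call. Of 12 receptors and adaptors, 12 genes of the Ras, Raf, MEK and ERK cascade and 15 of PI3K, AKT and mTOR, 0 were called in either direction. At an unadjusted p under 0.05, 2, 2 and 0 were higher and 0, 0 and 2 lower, where 1087 of all genes were higher and 1126 lower. EGFR had a difference of 0.42 ± 0.26 (1 of 6 sgRNAs negative, adjusted p = 0.959), with 225 and 243 normalized counts in OE19 vehicle against 233 and 245 in OE19 baseline, and 199 and 163 in N87 vehicle against 209 and 214 in N87 baseline. PTPN11 (SHP2), which relays receptor signals to Ras, was depleted in both lines, by -0.94 in OE19 (adjusted p = 0.0146) and by -0.98 in N87 (0.0124). SHC1 was depleted in N87 by -0.79 (0.000771), against -0.40 in OE19, with a difference of 0.38 that did not pass (0.904). BRAF had a difference of 0.34 (0.961). Genes the study names for lapatinib had no called difference without the drug. CSK, which restrains Src kinases, had a difference of -0.10 and BAX, which drives apoptosis, of -0.16, with KEAP1 at 0.12, PRR24 at -0.13, TADA1 at -0.13, KCTD5 at -0.04 and MED24 at 0.35, and none passed the test (adjusted p of 0.589 or more).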

How the data were processed

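Raw read counts per sgRNA were deposited for 12 libraries, and the 8 vehicle and baseline libraries were used. Upstream, the authors had trimmed reads, run FastQC (0.11.5, according to the submitters' processing notes), aligned reads to the sgRNA list by Bowtie with fewer than 2 mismatches (the notes give Bowtie2 2.3.2) and merged the counts. MAGeCK (0.5.6 in the notes) was not run here. No sgRNA sequence or target position was used here.

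Counts were analysed with edgeR 4.0.16 (limma 3.58.1, R 4.3.3), and with DESeq2 1.42.0 as an alternative, and in Python 3.11.15 (numpy 2.4.6, pandas 2.3.3, scipy 1.17.1, matplotlib 3.10.9). Each sgRNA was tested by edgeR's quasi-likelihood test with TMM factors, on the interaction of line and time over 8 libraries (at least 80 counts over them) and on time within each line over 4 libraries (at least 40 counts). Robust rank aggregation turned the ranks of one-sided p-values, those below 0.05, into a gene score where 2 or more sgRNAs were tested, with Benjamini-Hochberg adjustment over all genes and a threshold of 0.05. Control guides (2000 entries) stayed in the sgRNA fit and were no gene. Normalized counts use median-of-ratios scaling, and the changes of single pairs of libraries a pseudocount of 1. The script was tested on simulated data. Reads carry no molecular identifiers, so depth gives counting error only.

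Named genes are the 12 of lowest p in each direction that kept their sign in all 4 pairings of infections, called members of 36 gene lists, the genes the paper names for the screen, ERBB2 and EGFR. Other genes called, and genes said to be picked after their values were seen, are named beside them. The comparison, the lists and the rule were chosen with earlier results of these data known. A list is described by its counts and median, with no test. Gene positions are from GENCODE on GRCh37, by current or older symbol, for 98.6% of genes other than microRNAs, and 24 gene names in the table are dates and were kept. Items that are not reported here stayed in every test and count.

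Replicate numbers were taken from the labels. The difference between replicates 1 and 2 correlated between vehicle and baseline with r = 0.0776 in OE19 and 0.238 in N87, which does not establish pairs, so the replicate block was an alternative. The others were 2 rank limits (below 0.25 and all ranks), scaling by median ratios, control guides or total counts, no filter or a stricter filter (240 counts over 8 libraries), DESeq2, robust priors, and leaving out each library.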

Additional observations from a re-analysis of the deposited data

Results flagged for a closer look

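Named genes past the threshold are listed because the same contrast, vehicle against baseline, differed between the lines by the test of the difference itself (edgeR's quasi-likelihood interaction and rank aggregation, Benjamini-Hochberg adjusted p under 0.05). Lower in OE19 were ARID1A, with a difference of -1.08, SLC3A2 (-0.97), PGP (-0.94), PHF12 (-0.68), PTPMT1 (-1.04), C15orf41 (-0.29), FOXP4 (-0.81), MSTO1 (-1.01), CAD (-0.93), GATA6 (-0.62), PRICKLE4 (-0.64), DEPDC5 (-0.54), GPX4 (-0.71), DHODH (-0.77), MTHFD1 (-0.63) and SDHC (-0.71). Higher in OE19 were PPP1R1B (1.04), TCAP (1.04), PNMT (0.68), CISD3 (0.83), KRT33A (0.47), CCNC (0.63), HTT (0.50) and MED23 (0.71). Values are log2 and medians over sgRNAs.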

How the results depend on the processing

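No called gene changed direction under an alternative. The median differences of some gene lists, such as SWI/SNF, Mediator and the proteasome, turned negative with control-guide scaling. Of the 40 genes lower in OE19, all 40 kept their call with median-ratio or total-count scaling, no filter, the stricter filter, robust priors and both other rank limits, 39 with DESeq2, and 38 with control-guide scaling and with the replicate block. The number of lower genes was between 40 and 51 under these settings, and between 16 and 46 without 1 library. The 8 higher genes were 4 with ranks below 0.25, 4 with all ranks, 5 with control guides, 3 with the stricter filter and 0 to 27 without 1 library. The replicate block gave 49 lower genes (38 of the 40 among them) and 10 higher genes (7 of the 8), and it raised the lower sgRNAs to 79 and the higher to 9, where DESeq2 gave 38 and 3 and the fit without the block 4 and 0. Without 1 library, 0 to 622 sgRNAs were lower and 0 to 331 higher, the highest counts without OE19 vehicle replicate 2. Within lines, depleted genes in OE19 ranged from 188 (without vehicle replicate 2) to 317 without 1 library and were 322 with the replicate block, and genes gained there were 1 with control guides and 0 to 1 without 1 library. In N87, depleted genes were 836 with ranks below 0.25, 841 with all ranks, 538 with the replicate block and 175 (without vehicle replicate 2) to 519 without 1 library, and gained genes were 0 to 24 without 1 library (0 without vehicle replicate 2, 7 without baseline replicate 1 and 24 without vehicle replicate 1). The cause of these shifts was not tested. Control-guide scaling moved the median difference of all genes to -0.10 and the median changes to -0.17 in OE19 and -0.07 in N87. Where an arm was left with 1 library, it was assumed to vary like the others. With 2 infections per group, the spread between infections limits which differences can be called.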

Other observations

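Of the 12 genes gained in N87, 3 act in the PIDDosome, the complex in which PIDD and CRADD (RAIDD) activate CASP2. The changes of CASP2, CRADD and PIDD were -0.23, 0.21 and 0.07 in OE19, and 0.39, 0.38 and 0.39 in N87 (adjusted p = 0.00158, 0.0134 and 0.0205 for gain in N87, edgeR with rank aggregation). The difference between the lines passed the test for CASP2 alone (-0.63), and was -0.10 for CRADD (adjusted p = 0.857) and -0.40 for PIDD (0.395). The set was put together after the values were seen. Calls of gain in N87 depended on vehicle replicate 2, as given above. For CASP2 the N87 change was 0.20 in replicate 1 and 0.45 in replicate 2. Other genes gained in N87 included PAWR, a pro-apoptotic protein, OFD1 of the centriole, and the kinases ROCK2 and TAOK1, with changes of -0.01, 0.24, 0.19 and 0.23 in OE19 and 0.61, 0.52, 0.35 and 0.35 in N87, and no call of a difference.

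Of 43 genes known to be buffered by a paralogue or by MTAP, ARID1A was the 1 gene called lower and 0 were higher. Over all 20894 genes 40 were lower and 8 higher. The list had a median difference of -0.03 with 23 of 43 negative, where 10734 of all genes were. EIF1AX, a translation initiation factor with a copy on the Y chromosome, was depleted in OE19 by -1.33 (adjusted p = 0.000858). It differed from N87 by -0.94, just short of the threshold (adjusted p = 0.0565). FAM50A had a difference of 0.61 (0.284) and was depleted in N87 (0.00438). FNIP1, the partner of FLCN, had a difference of 0.28 and a change of 0.35 in OE19, of opposite sign to FLCN, and did not pass the test (0.959).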
